A study of Mus musculus with 8 samples.

Results

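Translation factors and cytosolic aminoacyl-tRNA synthetases were examined in whole lenses of mouse embryos at embryonic day 15.5 (E15.5). Members were taken by symbol: the initiation factor genes Eif1 to Eif6, the elongation factor genes Eef1 and Eef2 (each family with the kinases, binding proteins and methyltransferases that carry its name) and the cytosolic synthetases, Eprs among them. They comprise 68 of the 12393 genes that a probe set of the Affymetrix mouse array names alone, with 149 of 22626 probe sets, divided into 40 initiation, 10 elongation and 18 synthetase genes. A further 6 probe sets that name a member together with another gene were left out.

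Wild type lenses (4 samples) were compared with lenses (4 samples) of embryos carrying an αA-crystallin promoter driven dominant-negative Brg1 transgene (dnBrg1), both on a mixed strain background. Brg1 is the ATPase of SWI/SNF chromatin remodeling complexes, and the transgene encodes a form that cannot use ATP. As the study describes, the embryos carried the transgene heterozygously and came from a single founder line, wild type littermates served as controls, and the promoter drives the transgene in lens fiber cells, so the anterior epithelium of a whole lens contributes RNA without being the targeted cell. The comparison asks which transcripts of the translation machinery change when fiber cells lack normal Brg1 activity. In the sample descriptions polysome bound RNA is mentioned for every wild type sample and for dnBrg1 replicates 1 and 2 but not for replicates 3 and 4, although each of the 8 samples lists its molecule as total RNA.

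Protein synthesis begins when eIF2, loaded with GTP and initiator tRNA, joins the small ribosomal subunit together with eIF1 and the large eIF3 complex, and when the eIF4 factors bring the capped mRNA. Elongation factors then deliver charged tRNAs and move the ribosome, and each synthetase attaches an amino acid to its tRNA. Kinases that phosphorylate eIF2 slow initiation and raise translation of the transcription factor ATF4, whose targets include several synthetase genes. Lens fiber cells translate very large amounts of crystallin mRNA before they degrade their nuclei and organelles.

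The arrays were of like brightness (median intensity 196.9 to 209.1). Of 13 lens markers, 10 were measured, and their summed linear intensity was 103024 to 111411 in wild type and 109950 to 120716 in dnBrg1 samples. The crystallin gene Cryaa and the fiber membrane gene Mip were bright in both groups and not called. Of the 10, 3 were called higher, Bfsp1, Gja3 and Prox1 (log2 fold changes of 1.54, 1.53 and 0.53), and 7 were not called. Summed intensity of 11 neuron and retina markers was 16545 to 24516 in wild type and 11821 to 16599 in dnBrg1 samples (2 higher, 7 lower). That of 11 skeletal muscle markers was 733.2 to 1201 and 909.3 to 6350, highest in dnBrg1 replicates 2 and 4 (1 of 11 called, higher). For 7 macrophage markers the sum was 7969 to 9656 and 2226 to 4548, although 3 of them were called higher and 2 lower, with a median log2 fold change of 0.47. For 6 mesenchyme markers it was 1651 to 4738 in wild type and 9788, 823.6, 1622 and 9049 in dnBrg1 replicates 1 to 4, so that dnBrg1 replicates 1 and 4 stood apart. The array controls for RNA integrity also differed. The log2 signal at the 3' end of β-actin minus that at its 5' end was 2.50 ± 0.48 in wild type and 0.58 ± 0.06 in dnBrg1 samples (SD, n = 4 each), and that of Gapdh 1.59 ± 0.58 and 0.67 ± 0.02. Each control separated the groups without overlap (two-sided exact permutation p = 0.0286, the smallest that 70 assignments allow, and 0.0286 after adjustment). Wild type replicate 3 had the lowest mean of the wild type samples (1.43) and replicate 2 the highest (2.66). The mean of both controls was therefore entered as a covariate in a second fit, called the control covariate below.

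Most members differed between the genotypes, in both directions. Fold changes are given on the log2 scale as the dnBrg1 mean less the wild type mean, with the standard error after ± (SD where stated), and a probe set was called at a limma adjusted p under 0.05 over all probe sets. On the brightest probe set of each gene, 25 of the 68 members were higher, 18 were lower and 25 did not pass, so that 63.2% were called against 40.7% of all genes (17.5% higher and 23.3% lower). Members are brighter than most genes, 64 of 68 lying at or above the median brightness of the array, and of all genes that bright 52.6% were called. The median log2 fold change was 0.15 for members and -0.11 for all genes. In whole lenses, fewer cells of a type and less RNA per cell cannot be told apart.

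Over all 149 probe sets the count leaned to increases. A total of 68 probe sets were higher, 25 were lower and 56 did not pass, with a median of 0.27. Among all probe sets of the array 40.8% were called, 19.8% higher and 21.0% lower, and 53.5% of the bright ones. The groups did not overlap in 102 of 149 member probe sets. This held for 9083 of all 22626 probe sets (40.1%) and for 6034 of the 11313 bright ones. The excess of increases lay mainly in the further, dimmer probe sets of members, of which 43 were higher and 7 lower of 81. The direction of this lean was not particular to members. Across the array the brightest probe sets of genes were 2165 higher and 2882 lower of 12393. All 22626 probe sets were 4484 higher and 4745 lower, so increases outnumbered decreases among the remaining ones too. When all probe sets of a gene were averaged, 33 member genes were higher and 9 lower, in place of 25 and 18. No share of all genes averaged in this way is given here.

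With the control covariate 18 of the 149 member probe sets were called, against 6.37% of all probe sets (1442 of 22626). Over the whole array the number called fell from 9229 to 1442. Of the 93 member probe sets called without the covariate, 17 remained called, 11 higher and 6 lower in 16 genes. The estimate turned sign in 8 of the others and none of these passed in the opposite direction. The median standard error rose from 0.13 to 0.23 because the covariate nearly follows genotype, and the part of RNA integrity or amplification in the member changes cannot be told apart from that of genotype. Within the wild type group, replicate 3 was above replicate 2 in 52 of 68 higher member probe sets (76.5%) and below it in 18 of 25 lower ones (72.0%). Among all called probe sets these shares were 74.9% and 66.3%, near those of members. The cause of this order was not tested.

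Aminoacyl-tRNA synthetase transcripts changed in both directions. On the brightest probe sets 8 of 18 were higher, 5 were lower and 5 did not pass. The share called was 72.2%, against 62.5% of initiation and 50.0% of elongation genes, a difference that was not tested. It was 40.7% for all genes and 52.6% for the bright ones. Over all of their 35 probe sets 18 were higher and 7 lower. Rars, Cars, Lars, Tars, Kars, Gars, Iars and Wars, which charge the tRNAs for arginine, cysteine, leucine, threonine, lysine, glycine, isoleucine and tryptophan, rose. Vars, Hars, Aars, Farsb and Qars, for valine, histidine, alanine, phenylalanine and glutamine, fell on these probe sets. Nars, Sars, Yars, Farsa and Eprs did not pass.

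Rars was the largest increase on the brightest probe sets of synthetases. Its log2 intensity was 10.45, 10.48, 10.47 and 10.37 in wild type replicates 1 to 4 and 11.62, 11.61, 11.61 and 11.60 in dnBrg1 replicates 1 to 4. Both groups were tight and far apart. The increase was 2.25-fold (1.17 ± 0.09, adjusted p = 2.1e-05) and was as large with the control covariate (1.16, adjusted p = 0.017).

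Vars was the largest decrease of any synthetase probe set. It read 7.95, 7.99, 8.31 and 8.28 in wild type and 6.66, 6.96, 6.52 and 6.23 in dnBrg1 samples, with no overlap. The log2 fold change was -1.54 ± 0.16 (adjusted p = 0.00011) and -1.77 with the control covariate (adjusted p = 0.044). Lars, which read 11.34 to 11.67 in wild type and 12.21 to 12.45 in dnBrg1 samples, also kept its increase with the covariate (0.86 ± 0.11 and then 1.17, adjusted p = 0.035).

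Cars (1.05 ± 0.25) and Tars (0.70 ± 0.12) were higher without overlap between the groups. Within the dnBrg1 group the brightest Cars probe set was split, at 9.89 and 9.88 in replicates 1 and 2 and at 9.19 and 8.99 in replicates 3 and 4, the replicates whose descriptions do not mention polysome bound RNA. For Cars and Tars the estimates with the control covariate were 0.40 and 0.24 and did not pass. Farsb, the β subunit of phenylalanine synthetase, was lower (-0.53 ± 0.15, adjusted p = 0.017) but stood at 0.26 with the covariate (adjusted p = 0.44).

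Eprs, the joined synthetase for glutamate and proline, was read by 3 probe sets that differed. The brightest stood at 10.97, 11.49, 10.63 and 10.99 in wild type and 10.77, 10.69, 10.67 and 10.68 in dnBrg1 samples. Its groups overlapped and it did not pass (-0.31 ± 0.17, adjusted p = 0.16), although leaving out wild type replicate 3 gave a decrease that passed (-0.44, adjusted p = 0.033).

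The second Eprs probe set was at 8.68, 8.04, 8.90 and 8.35 in wild type and at 11.02, 11.12, 10.65 and 10.89 in dnBrg1 samples. This was a 5.38-fold increase (2.43 ± 0.19, adjusted p = 2.8e-05), and with the control covariate it was 1.43 and still passed (adjusted p = 0.033). The third rose 7.20-fold, from 7.90, 6.79, 8.16 and 7.73 to 10.67, 10.60, 10.29 and 10.41 (2.85 ± 0.26, adjusted p = 5.4e-05), the largest change of any member probe set, and was at 1.35 with the covariate (adjusted p = 0.063). In each of these probe sets wild type replicate 3 was the highest and replicate 2 the lowest of the wild type samples, the same order as their control values reversed. In the brightest Eprs probe set replicate 2 was the highest and replicate 3 the lowest, as in the control values.

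Aars and Hars were read in opposite directions. The brighter Aars probe set fell by 1.13 ± 0.13, from 11.12, 11.40, 10.85 and 11.29 to 9.97, 10.08, 10.12 and 9.98. The dimmer rose by 1.57 ± 0.13, from 8.04, 7.68, 8.27 and 8.09 to 9.47, 9.60, 9.64 and 9.65. Neither probe set had overlapping groups (adjusted p = 0.00017 and 3.6e-05), and with the control covariate only the increase passed (0.94, adjusted p = 0.044).

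For Hars it was the decrease that passed with the covariate. Its brighter probe set, 13.30, 13.36, 13.14 and 13.34 in wild type, was 12.05, 11.99, 11.76 and 11.90 in dnBrg1 samples (-1.36 ± 0.11, adjusted p = 2.7e-05, and -1.09 with the covariate, adjusted p = 0.032). The dimmer rose by 1.46 ± 0.16 (adjusted p = 0.00015), from a range of 8.80 to 9.62 to one of 10.63 to 10.80, and was at 0.55 with the covariate (adjusted p = 0.17).

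Iars and Wars were higher with every probe set. The brighter Iars probe set was at 10.91 to 11.59 in wild type and 11.80 to 11.92 in dnBrg1 samples (0.52 ± 0.15, adjusted p = 0.020), a call that was lost without dnBrg1 replicate 3 or 4. The dimmer was at 9.22, 9.46, 9.35 and 9.47 against 10.76, 10.88, 10.64 and 10.72 (1.38 ± 0.10, adjusted p = 2.3e-05). Both passed with the control covariate, at 1.29 and 1.58. The 4 Wars probe sets rose by 0.42 to 1.42, and 1 of them, from 7.39 to 7.78 up to 8.83 to 9.15, passed with the covariate (1.22, adjusted p = 0.048). Without dnBrg1 replicate 3 the calls of the brightest and the dimmest Wars probe sets were lost, the latter also without wild type replicate 4 or dnBrg1 replicate 1 or 4. Qars (-0.40 and 0.42 on its called probe sets) and Cars (1.05 and -0.79) completed the synthetases read in both directions. Without dnBrg1 replicate 3 the Qars increase was lost (0.36, adjusted p = 0.057).

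**Figure D1:**
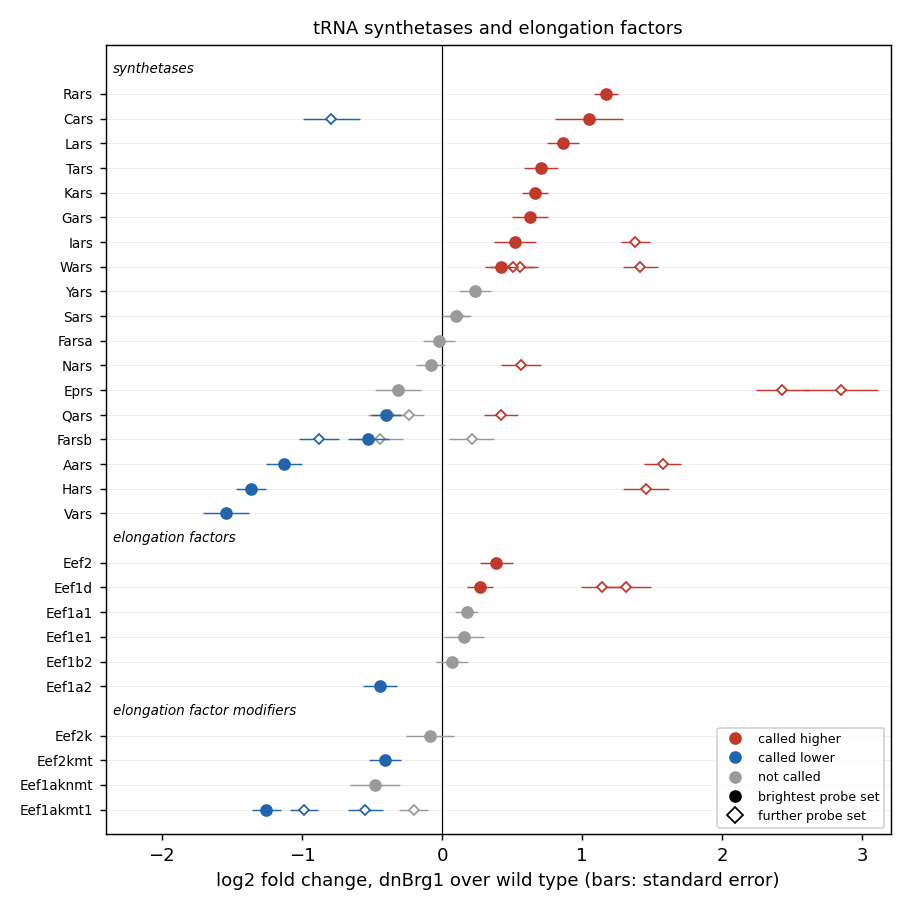
Log2 fold change (dnBrg1 over wild type, horizontal axis) of every probe set of the synthetase and elongation genes, 1 row per gene, with standard errors as bars, red for called higher, blue for called lower and grey for not called. Filled circles are the brightest probe set of a gene and open diamonds the further ones, and Eprs, Aars and Hars show probe sets far apart.

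The promoters of 51 members, 11 synthetases among them, were matched in RefSeq (GRCm38.p6, 250 bases before to 50 after the transcription start). They were searched on both strands for TGATGNAAT, the composite element of ATF4 and C/EBP factors, because several synthetase genes are known ATF4 targets. It was found in 3 of 11 synthetases (27.3%), in 3 of 51 members (5.88%) and in 1.08% of all 27025 genes with a window (0.965% of 32851 windows). The 29-base windows of Gars and Iars are shown on the strand of the gene with the match in capitals, which is the reverse complement of the element in each.
Gars, chr6:55037960-55037988, plus strand: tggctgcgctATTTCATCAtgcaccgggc
Iars, chr13:49682126-49682154, plus strand: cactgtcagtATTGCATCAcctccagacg
The shorter TGATGNAA, which lies within the element and was chosen after these promoters were read, was in 5 of 11 synthetases (45.5%, with Tars and Yars added) and in 4.51% of all genes (3.97% of windows). A match describes letters and does not show binding.

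A list of 24 genes of the ATF4 and integrated stress response was also described. Of these 9 were higher, 6 were lower and 9 did not pass, with a median of 0.04. The share called was 62.5%, against 40.7% of all genes and 52.6% of the bright ones. Atf4 itself rose (0.56, adjusted p = 0.0042), as did Ddit3, which encodes the stress factor CHOP (0.67, adjusted p = 0.0012), and Ppp1r15a, the eIF2 phosphatase subunit GADD34 (1.40, adjusted p = 0.00076). The asparagine synthetase gene Asns (-1.43, adjusted p = 0.00061) and Chac1, a glutathione-degrading enzyme (-1.88, adjusted p = 0.032), fell. With the control covariate Ppp1r15a remained higher (2.40, adjusted p = 0.019) and Atf4, Ddit3, Asns and Chac1 did not pass.

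Initiation factors and their regulators were called in 25 of 40 genes, 15 higher and 10 lower (62.5%, against 40.7% of all genes and 52.6% of the bright ones). Increases lay mainly in eIF1, eIF2, eIF2B and eIF3 subunits, although Eif2b2, Eif2b4 and Eif3c were lower on their brightest probe sets. Of the eIF2 kinase genes, which restrain initiation, 3 of 4 were lower on their brightest probe sets, while over all 9 of their probe sets 1 was higher and 3 lower. Among Eif4ebp1, Eif4ebp2 and Eif4enif1, which bind eIF4E, 1 was higher and 2 were lower on the brightest probe sets, but over all 9 probe sets 4 were higher and 2 lower, with a median of 0.33. Averaging all probe sets of each gene gave 23 higher and 4 lower.

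Of the eIF1 genes, which help select the start codon, Eif1b (1.10 ± 0.15) and Eif1ax (0.59 ± 0.11) were higher. Eif1b was at 11.47, 11.07, 11.78 and 11.28 in wild type and at 12.54, 12.41, 12.54 and 12.51 in dnBrg1 samples, with no overlap (adjusted p = 0.00038, and 0.28 with an adjusted p of 0.40 in the fit with the control covariate). The brightest Eif1a probe set did not pass (-0.20 ± 0.09).

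Of 6 genes for eIF2, its exchange factor eIF2B and the separate factor eIF2D, 3 were higher and 2 lower, and Eif2d did not pass (-0.03). The share called was 83.3%, against 40.7% of all genes and 52.6% of the bright ones. Eif2b5, the catalytic subunit of eIF2B (1.02 ± 0.13), and Eif2b1 (0.71 ± 0.11) rose, and Eif2b4 (-0.64 ± 0.11) and Eif2b2 (-0.35 ± 0.10) fell on their brightest probe sets. Only Eif2b1 of these passed with the control covariate (1.07, adjusted p = 0.029). The 6 probe sets of Eif2s2, the β subunit of eIF2, were 5 higher (0.25 to 0.96) and 1 lower (-0.64 ± 0.13, and -1.18 with the covariate, adjusted p = 0.031). Its brightest increase was small (0.25 ± 0.09, adjusted p = 0.044), and its call was lost without any 1 of the 8 samples. The dimmer probe sets of Eif2b2 rose by 0.97 ± 0.18 and 0.65 ± 0.16.

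Of the 4 kinases that phosphorylate eIF2, 3 were lower on their brightest probe sets (75.0% called, against 40.7% of all genes and 52.6% of the bright ones). Eif2ak1, the heme-regulated kinase, was at 10.60, 11.10, 10.17 and 10.61 in wild type and 9.15, 9.12, 9.23 and 9.17 in dnBrg1 samples. This was a 2.74-fold decrease without overlap (-1.45 ± 0.17, adjusted p = 0.00020), while its second probe set rose by 1.17 ± 0.17, from 5.92 to 6.77 up to 7.55 to 7.67. With the control covariate these were -0.46 and 0.41 and neither passed. Eif2ak4, the amino acid sensor GCN2, was lower (-0.79 ± 0.18, adjusted p = 0.0062) but at 0.25 with the covariate (adjusted p = 0.51), and its wild type samples spread from 9.30 to 10.15 against 8.98 to 9.01 in dnBrg1 samples.

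Eif2ak3, the endoplasmic reticulum kinase PERK, was at 8.78 to 9.16 in wild type and 8.50 to 8.59 in dnBrg1 samples, without overlap (-0.50 ± 0.11, adjusted p = 0.0056). Its further probe sets (-0.35 and -0.12) did not pass, although without wild type replicate 2 the first of these was just called (-0.44). Eif2ak2, the double-stranded RNA kinase PKR, did not pass on either probe set (0.15 ± 0.18 and 0.56 ± 0.24). Its second probe set was called higher without wild type replicate 3 or 4 (0.70 and 0.72, adjusted p = 0.039 and 0.043).

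Of 11 eIF3 subunit genes 6 were higher and 1 was lower (63.6% called, against 40.7% of all genes and 52.6% of the bright ones). Eif3d, a subunit that can itself contact the mRNA cap, was at 10.48, 10.29, 10.78 and 10.22 in wild type and 12.28, 12.21, 12.35 and 12.36 in dnBrg1 samples. It rose 3.62-fold without overlap (1.86 ± 0.13, adjusted p = 1.9e-05) and was at 1.24 with the control covariate (adjusted p = 0.023), the only subunit called in that fit. Eif3m (1.14 ± 0.13), Eif3h (0.98 ± 0.16), Eif3k (0.51 ± 0.12), Eif3e (0.43 ± 0.09) and Eif3f (0.36 ± 0.11) were also higher, the last of these not without dnBrg1 replicate 1 or 3.

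Eif3c, a core subunit, was lower on its brightest probe sets (-0.64 ± 0.12 and -0.65 ± 0.12) and higher on the dimmer ones (0.40 ± 0.11 and 1.60 ± 0.18). The last of these rose from 10.17, 9.75, 10.49 and 10.56 to 11.95, 11.83, 11.69 and 11.90. Eif3a, the largest subunit, showed no call on its brightest probe set (0.08 ± 0.10) but 3 increases on the others (0.70 to 1.63). Eif3i, Eif3l and Eif3b did not pass on their brightest probe sets.

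**Figure D2:**
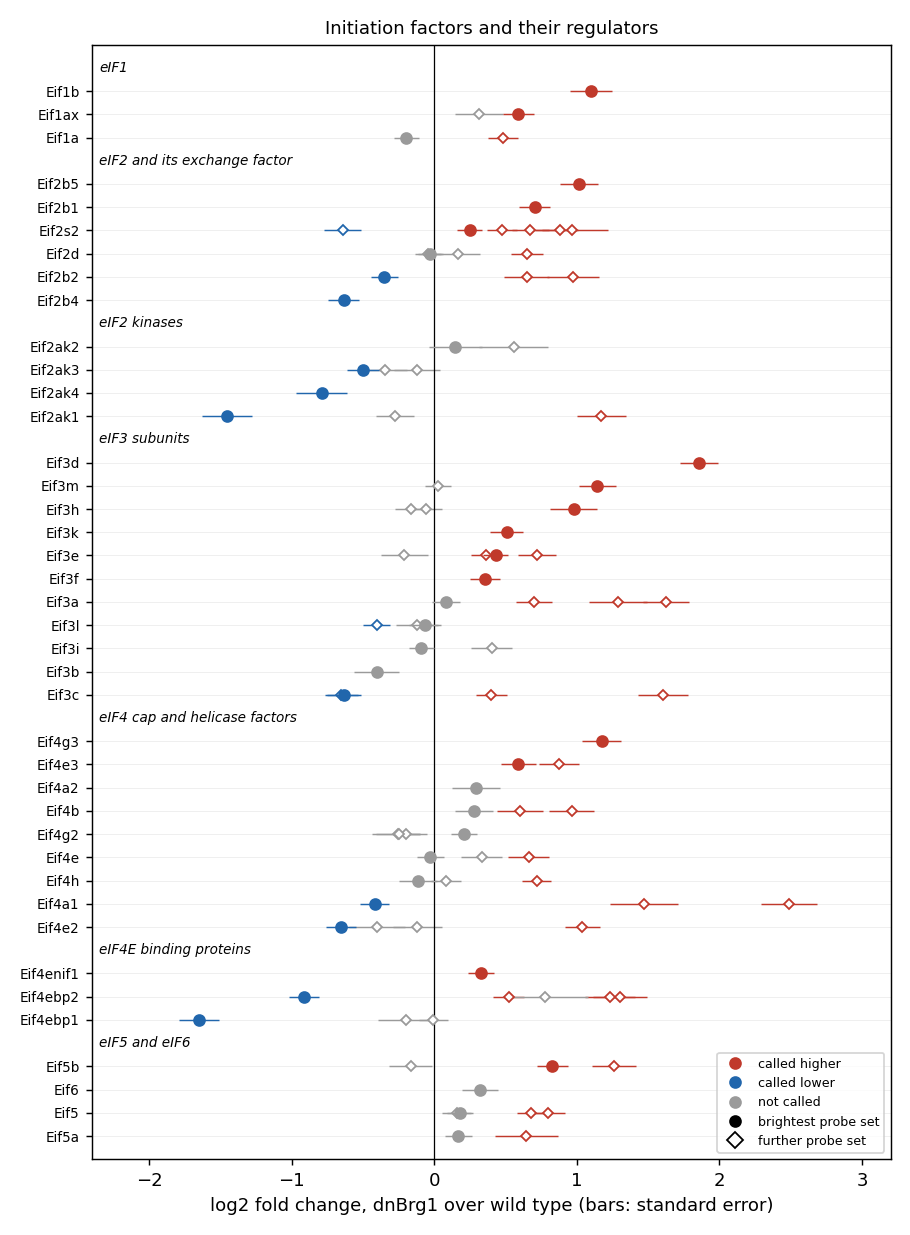
Log2 fold change (dnBrg1 over wild type, horizontal axis) of every probe set of the 40 initiation factor and regulator genes, grouped by role, with standard errors as bars, red for called higher, blue for called lower and grey for not called. Filled circles are the brightest probe set of a gene, and open diamonds, the further probe sets, lie mostly to the right of them.

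The eIF4 factors bind the cap and unwind the mRNA leader, and 2 of 9 were higher and 2 lower. The share called was 44.4%, near the 40.7% of all genes and 52.6% of the bright ones. Eif4g3, a scaffold, was higher (1.17 ± 0.14, adjusted p = 0.00017), at 9.51 to 10.07 in wild type and 10.72 and above in dnBrg1 samples, as was Eif4e3 (0.59 ± 0.13). Eif4e2, a cap-binding protein that represses translation, was lower on its brightest probe set (-0.65 ± 0.10) and higher on the second (1.04 ± 0.12). Eif4e, the main cap-binding protein, did not pass on its brightest probe set (-0.03 ± 0.10) and was higher on the second (0.66 ± 0.14, adjusted p = 0.0051, but -0.01 with the control covariate). Without wild type replicate 1 a dimmer Eif4e2 probe set (-0.40 ± 0.20, adjusted p = 0.13) was called lower (-0.56, adjusted p = 0.032).

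Eif4a1, the helicase, held the largest increase of the initiation genes. Its brightest probe set was at 12.95, 12.82, 12.98 and 13.06 in wild type and 12.62, 12.60, 12.53 and 12.38 in dnBrg1 samples (-0.42 ± 0.10, adjusted p = 0.0091). The second was at 11.59, 10.86, 11.39 and 10.64 against 13.57, 13.55, 13.64 and 13.69, a 5.61-fold increase (2.49 ± 0.20, adjusted p = 2.9e-05), and the third rose by 1.47 ± 0.24. None of the 3 had overlapping groups, and the second alone passed with the control covariate (1.65, adjusted p = 0.047).

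Its close relative Eif4a2 (0.30 ± 0.17) and the 4 probe sets of Eif4g2 (-0.26 to 0.21) did not pass. Eif4a2 was called higher without wild type replicate 3 (0.43, adjusted p = 0.042). Cross-hybridization between near-identical relatives such as Eif4a1 and Eif4a2 was not tested.

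The eIF4E binding proteins hold eIF4E away from the scaffold, and Eif4ebp1 gave the largest decrease of any member probe set. It was at 11.69, 11.66, 11.49 and 11.86 in wild type and 10.32, 9.97, 10.08 and 9.73 in dnBrg1 samples. The decrease was 3.14-fold on this probe set (-1.65 ± 0.14, adjusted p = 3.9e-05, and -1.40 with the covariate, adjusted p = 0.049), while its other probe sets were at -0.01 and -0.20 and did not pass.

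Eif4ebp2 was lower on its brightest probe set, from 11.66, 11.67, 11.96 and 11.69 to 10.85, 10.84, 10.89 and 10.74 (-0.92 ± 0.10, adjusted p = 0.00016, and -1.23 with the covariate, adjusted p = 0.021). It was higher on 3 dimmer ones (0.52 to 1.30), none of which passed with the covariate. The dimmest probe set (0.78 ± 0.30, adjusted p = 0.065) was called higher without wild type replicate 3 (1.13). Eif4enif1, which carries eIF4E into the nucleus, was slightly higher (0.33 ± 0.09), a call lost without dnBrg1 replicate 4.

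**Figure D3:**
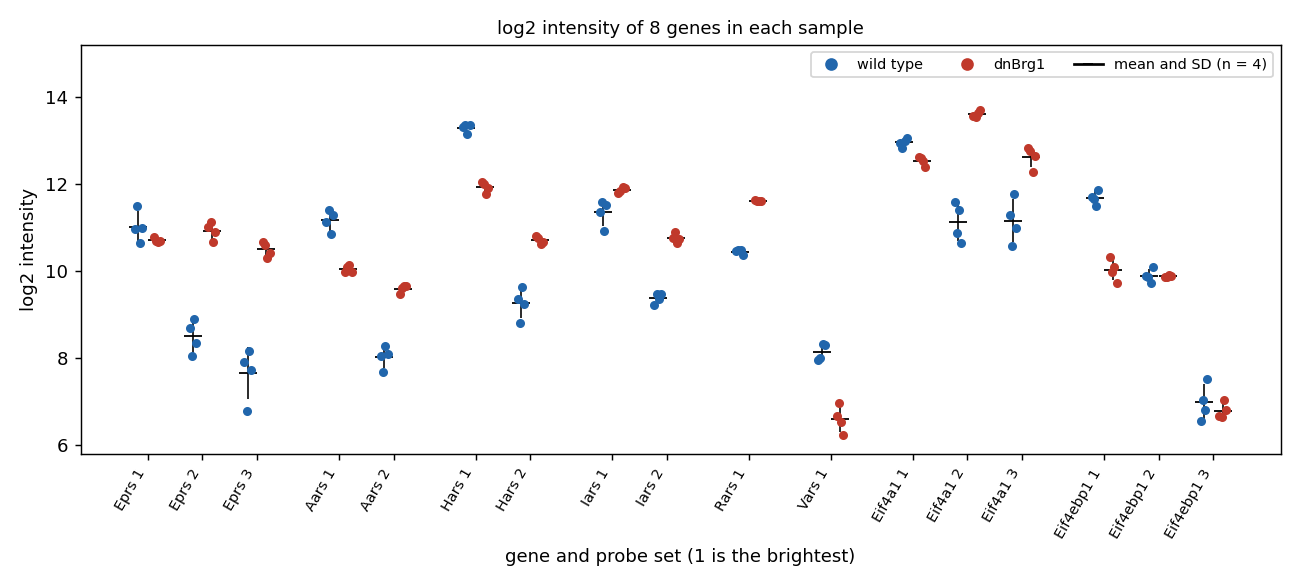
Log2 intensity (vertical axis) of each probe set of 8 genes in the 4 wild type (blue) and 4 dnBrg1 (red) samples, numbered from the brightest, with the mean and SD in black. Aars, Hars and Eif4a1 differ in direction between probe sets and Eprs is higher on its dimmer ones, while Rars and both Iars probe sets are higher in dnBrg1 samples and Vars is lower.

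Of the late initiation factors, Eif5b, which joins the ribosomal subunits, was higher on its brightest probe sets (0.83 ± 0.11 and 1.26 ± 0.16) and not called on the third (-0.17 ± 0.15). Eif5, Eif5a and Eif6 did not pass on their brightest probe sets (0.17 to 0.32). A second Eif5a probe set was called higher (0.65 ± 0.22, adjusted p = 0.041) with overlapping groups, and that call was lost without any of 6 samples.

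The letters CCGGAAGT, a site recognized by ETS family factors, were chosen after the promoters were read and were present in 9 of 51 matched members (17.6%) and in 4.31% of all genes (3.89% of windows), on either strand. The windows of Eif3d and Eif2ak1 are shown because these genes gave the largest increase and a large decrease on their brightest probe sets while both promoters hold the same letters. Each is given on the strand of its gene, the match in capitals.
Eif3d, chr15:77970878-77970905, minus strand: gctgtgacacACTTCCGGttgtgtctca
Eif2ak1, chr5:143817797-143817824, plus strand: ctcttgtgttACTTCCGGcttgggggga
The others were Eef1b2, Eif2b2, Eif2b4, Eif3l, Eif4e2, Eif5a and Farsa, and on their brightest probe sets Eif2b2, Eif2b4 and Eif4e2 were lower and the rest did not pass.

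Elongation factor transcripts changed little on their brightest probe sets. Of 6 factor genes 2 were higher and 1 was lower, none of them by 1.5-fold. Of 4 genes for enzymes that modify these factors 2 were lower. The share called was 50.0% in each, near the 40.7% of all genes and 52.6% of the bright ones. Eef1a1, which delivers charged tRNA and was the brightest member, did not pass (0.18 ± 0.08, adjusted p = 0.12), although it read 13.99 to 14.05 in wild type and 14.18 to 14.24 in dnBrg1 samples without overlap. Eef1e1, an accessory protein of the synthetase complex, and Eef1b2 did not pass (0.16 and 0.07).

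Eef2, the translocase, was higher (0.39 ± 0.12, adjusted p = 0.024), from 12.69, 12.35, 12.74 and 12.44 to 12.96, 12.89, 13.03 and 12.89. The call was lost without wild type replicate 2 or 4 or dnBrg1 replicate 1 or 3 (adjusted p = 0.052 to 0.065), and the estimate was -0.11 with the control covariate. Eef1d, a subunit of the exchange factor for eEF1A, was higher on its brightest probe set by 0.27 ± 0.09, a call lost without any sample but wild type replicate 3. Its dimmer probe sets rose by 1.14 ± 0.15 and 1.32 ± 0.18, and the last, from 6.31 to 7.20 up to 8.01 to 8.28, passed with the covariate (2.28, adjusted p = 0.011).

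Eef1a2, the form of eEF1A used in neurons and muscle, was dim and lower (-0.44 ± 0.12, adjusted p = 0.016). It was at 6.34, 5.87, 6.18 and 6.16 in wild type and 5.75, 5.74, 5.75 and 5.54 in dnBrg1 samples, and the call was lost without dnBrg1 replicate 4 (adjusted p = 0.051). The neuron and retina marker sum was also lower in most dnBrg1 samples and the muscle sum above every wild type sample in 3 of them, and their part in this value was not tested.

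Among the modifying enzymes Eef1akmt1, a lysine methyltransferase of eEF1A, was lower on 3 of 4 probe sets. The brightest was at 11.72, 11.74, 11.47 and 11.55 in wild type and 10.31, 10.29, 10.48 and 10.38 in dnBrg1 samples (-1.25 ± 0.10, adjusted p = 3.2e-05). It also passed with the control covariate (-1.02, adjusted p = 0.038). Eef2kmt, a methyltransferase of eEF2, was lower (-0.41 ± 0.11), and Eef2k, the kinase that inhibits eEF2, did not pass (-0.09 ± 0.17).

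Probe sets of the same member often disagreed. Of 39 members with several probe sets, 12 had their calls in 1 direction, 11 had calls in opposite directions, 12 had a single call and 4 had none. Opposite calls were found in Aars, Cars, Hars, Qars, Eif2ak1, Eif2b2, Eif2s2, Eif3c, Eif4a1, Eif4e2 and Eif4ebp2. These were 28.2% of the 39, against 13.8% of 4956 genes of the array with several probe sets. Among genes with at least 2 called probe sets the shares were 47.8% and 41.7%. With dim probe sets left out, 9 of 34 members (26.5%) and 15.4% of all such genes had opposite calls. Positions of the probe sets along the transcripts were not analysed here, and probe sets whose names end in _x_at or _s_at can match further transcripts. Such names belong to both lower Eif3c probe sets and to the lower probe sets of Aars and Eif4ebp1. They also belong to probe sets that rose, among them the second of Eprs and the brighter of Iars. For the 11 genes with opposite calls no single direction can be given for the gene.

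**Figure D4:**
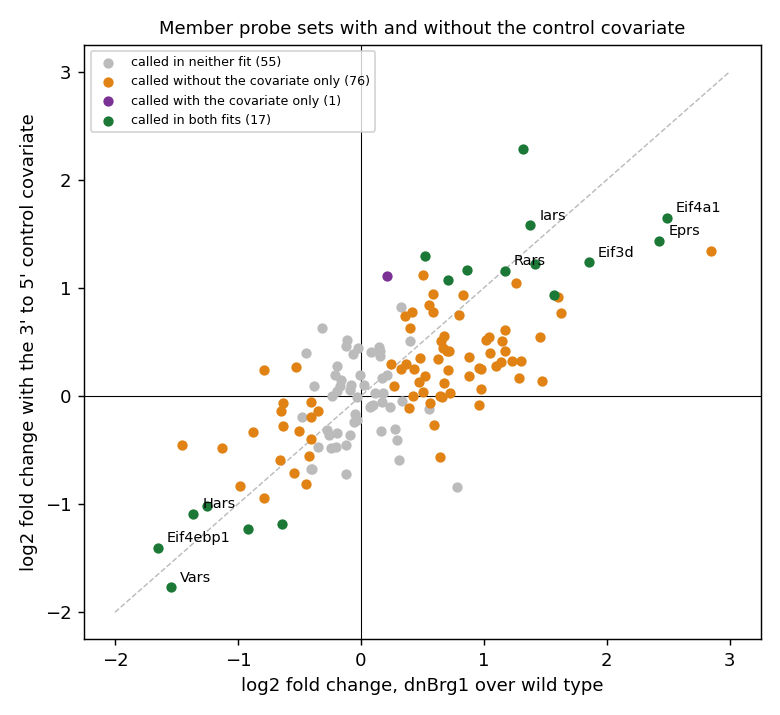
Log2 fold change (dnBrg1 over wild type) of the 149 member probe sets without (horizontal axis) and with (vertical axis) the control covariate, with the line of equal values dashed. Green points (17) passed in both fits, orange points (76) in the fit without the covariate, the purple point, a Farsb probe set, in the fit with it, and grey points (55) in neither.

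Of the 17 probe sets called in both fits, the higher ones belong to Wars, Eif3d, Rars, Aars, Iars, Eprs, Eef1d, Eif4a1, Lars and Eif2b1. The lower ones belong to Eif2s2, Eif4ebp1, Eif4ebp2, Hars, Vars and Eef1akmt1. For Aars, Eif4a1, Eif2s2, Eif4ebp2 and Hars other probe sets were called in the opposite direction in the fit without the covariate. Iars is counted with both of its probe sets. Of the 76 that were lost, 24 kept their sign with a log2 estimate that had not shrunk by more than a factor of 1.5. These include estimates that grew, such as that of Eef1a2 (-0.44 and then -0.82). A Farsb probe set that was not called at first (0.21 ± 0.16) was higher in the fit with the covariate (1.11, adjusted p = 0.022).

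Other genes of the pathway were described by fixed lists on their brightest probe sets. Of 30 accessory factors of translation 26 were measured, 12 higher, 8 lower and 6 not called (76.9% called), with a median of 0.31. For comparison, 40.7% of all genes and 52.6% of the bright ones were called. Denr, a factor of ribosome recycling and reinitiation, rose by 1.57 (adjusted p = 7.3e-05), while its partner Mcts1 fell by 0.92 (adjusted p = 0.00019). Aimp1 (1.29) and Aimp2 (1.30), scaffolds that hold synthetases in a complex, rose, as did the release factor Gspt1 (1.27 and, with the control covariate, 1.40, adjusted p = 0.014). Dhps (-1.24) and Dohh (-0.58), which make the hypusine residue of eIF5A, fell. Of 15 mitochondrial synthetases and translation factors 2 were higher, 6 lower and 7 not called (53.3% called), with a median of -0.31. Iars2 rose by 1.58 (adjusted p = 4.8e-05) and Tars2 fell by 0.90 (adjusted p = 0.0014).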

How the data were processed

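RNA of 4 wild type and 4 dnBrg1 lens samples was hybridized after amplification and biotin labeling of 50 ng by the NuGEN Ovation system. The authors processed the scans with robust multichip average (RMA), with the version not given in the sources used here. The deposited values are intensity on a linear scale (3.64 to 25532) and were taken to log2. RMA makes the distributions of the arrays alike, which removes any shift common to most genes. The number of arrays limits the precision.

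Groups came from the genotype labels. The 22626 probe sets that are not array controls (64 set aside) were fitted with limma 3.58.1 (lmFit, eBayes; R 4.3.3) for the difference between genotypes, with no covariate or filter and with Benjamini-Hochberg adjustment over all. The samples are called biological replicates, and p-values measure the spread between these samples. Gene names came from the platform annotation, and the brightest probe set of a gene was chosen by its mean over the 8 samples. The fit was tested on simulated data, where it called 27 of 100 probe sets changed 1.5-fold and 62 of 100 changed 2-fold, with 3 false calls. The simulation gave 92 calls against 9229 in the data, so its recovery need not hold here. A probe set that did not pass may still differ. No column of samples outside the series was found (0). Promoters came from the RefSeq table (GRCm38.p6), flanks of 10 bases being printed beside a match. The sequence of 1 matching window is not reported here.

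Named with every probe set were Eprs, the broad factors, the eIF2 kinases and members with opposite calls, and on their brightest probe sets the 4 largest called increases and decreases per family. Of these, Eif2s1 and Eif4g1 were not analysed here. Other named genes were chosen after their values were seen. The members, lists and rules were chosen with earlier results of these data known. Alternatives were 2 further scalings, 16 added before log2, bright probe sets alone, another variance model, weights for arrays, omission of each sample, the replicate number as a block, the described RNA fraction, the control covariate, the Student's test that the methods name, averaging of probe sets and stricter thresholds.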

Additional observations from a re-analysis of the deposited data

Results flagged for a closer look

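In 150 groups of 4 samples of the named members, 6 had a sample far from the others on the log2 scale, given as the gap to the nearest sample over the range of the group, where chance gives about 1 in 20. For Eef1a2, dnBrg1 replicate 4 was lowest (5.54 against 5.74 to 5.75, ratio 0.951). For the second Eif2ak1 probe set, dnBrg1 replicate 2 was lowest (7.55 against 7.66 to 7.67, ratio 0.907). For Eif4ebp2, wild type replicate 3 was highest with the brightest probe set (11.96 against 11.66 to 11.69, ratio 0.87) and with the fourth (7.38 against 6.50 to 6.60, ratio 0.883), and dnBrg1 replicate 3 was highest with the second (10.03 against 9.62 to 9.67, ratio 0.875). For the brightest Eprs probe set, dnBrg1 replicate 1 was highest (10.77 against 10.67 to 10.69, ratio 0.833).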

How the results depend on the processing

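Member genes called on their brightest probe set (43) numbered 27 with dnBrg1 replicates 1 and 2 alone and 27 with a change of at least 1.5-fold. With the control covariate 10 member genes (5 higher, 5 lower), 18 member probe sets, 4 initiation, 1 elongation and 5 synthetase genes and 1442 of all probe sets were called, and the estimate turned sign for Eef2 (-0.11), Eif2ak4 (0.25), Farsb (0.26), the second probe sets of Eif4e (-0.010) and Eif5a (-0.56) and the dimmest of Eif2s2 (-0.080), none of which passed. With dnBrg1 replicates 1 and 2 alone 8 synthetase genes, 1 elongation gene and 5640 of all probe sets were called. The elongation count (5) was 1 with the described RNA fraction as a covariate, 1 at an adjusted p under 0.01 and 1 at 1.5-fold, and 3 to 6 without any 1 sample. All calls at an adjusted p under 0.01 numbered 6031. Without any 1 sample 84 to 101 member probe sets and 38 to 46 member genes were called, and the Gapdh control difference was -1.13 to -0.67. When any 1 dnBrg1 sample was left out, the Gapdh difference did not pass (exact permutation p = 0.0571). Its size hardly moved, at -0.94 to -0.92 against -0.93 with all 8 samples, and fewer samples allow fewer assignments. The β-actin difference still passed in these fits (exact permutation p = 0.0286). With the replicate block the counts were 86 member probe sets, 35 member genes and 3 elongation genes. Same-numbered samples correlated at -0.19 to 0.16, so the numbers were not taken to pair them. The methods' Student's test called 109 member probe sets at its unadjusted threshold and 95 after Benjamini-Hochberg adjustment. Of 53 named calls, 37 kept direction and call in every alternative fit except that with the control covariate.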
